A study of Homo sapiens with 6 samples.

Results

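RMRP and RPPH1 are the RNA subunits of RNase MRP and RNase P. The measurements below are positions of deposited peaks on them, from RNA purified with the tagged chaperones HSPA1A and HSPA8 after ultraviolet crosslinking. Both genes were taken by name from the RefSeq gene table for GRCh38.p14, as 2 of 59716 gene entries on the nuclear chromosomes and the mitochondrial genome. RMRP lies at chr9:35657750-35658019 and gives an RNA of 270 nt. RPPH1 lies at chr14:20343071-20343411 and gives an RNA of 341 nt. Every deposited peak overlapping either gene by at least 1 bp was kept, which gave 22 of 9974 peaks over 4 lists, 8 on RMRP and 14 on RPPH1.

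The peaks come from FLASH-seq, in which RNA crosslinked to a tagged protein by ultraviolet light is purified with the protein and sequenced. The cells were HEK293 Flp-In T-Rex, an established line of human embryonic kidney origin whose transgene, integrated at a fixed site, responds to tetracycline. All 6 libraries received 1 µg/ml tetracycline and UV-C light, and their baits were GFP, HSPA1A or HSPA8 with a 3xFLAG-HBH tag, each in 2 biological replicates. The baits were thus tagged transgene products in cells that also hold their own HSPA8. The lists used are those of HSPA1A replicates 1 and 2 and HSPA8 replicates 1 and 2. Peaks of GFP libraries were not analysed here, so none of the values has a background from a control bait. The lists held between 2040 and 3131 peaks with a median width of 44 to 57 bp. Peaks on unplaced scaffolds numbered 0 in both HSPA1A lists, 353 of 3131 in HSPA8 replicate 1 and 617 of 2040 in HSPA8 replicate 2. The lists of the baits thus differ in their content of scaffold peaks, and settings that cut a list by score count these peaks. Any difference between baits below cannot be told apart from a difference in how their lists were made. Read depth is unknown, and the meaning of the authors' score per peak is not stated, so the score is used only to describe and rank peaks within a list.

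RNase P is the ribonucleoprotein that removes the 5′ leader from precursor tRNAs, and RNase MRP is its relative that cleaves the precursor of ribosomal RNA. The RNAs of both enzymes fold around a related catalytic core, share most of their protein subunits and each carry a stem-loop, the P3 domain, that binds the RPP25 and POP7 proteins. Both are made by RNA polymerase III from promoters that lie upstream of the gene, as are 7SK and U6 RNA. Polymerase III transcription is also the topic named in the title of the series.

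Both RNAs carried peaks in all 4 lists. Of all genes, 521 (0.872%) had a peak in all 4 lists with strand ignored, and for single lists the share was 3.04% and 2.00% for HSPA1A replicates 1 and 2 and 3.05% and 1.28% for HSPA8 replicates 1 and 2. Among 49 polymerase III genes outside the tRNA and 5S rRNA families, 10 (20.4%) had a peak in all 4 lists. In single lists the share of these genes was 65.3% and 51.0% for HSPA1A and 69.4% and 20.4% for HSPA8. By a peak in all 4 lists, RMRP and RPPH1 therefore belong to the smaller share in either comparison. In both HSPA1A lists and HSPA8 replicate 1, most of these polymerase III genes had a peak. The 10 with a peak in all 4 lists include RMRP and RPPH1 themselves, and the others are RN7SK, RN7SL1, RN7SL2 and U6 genes. The names that defined the 49 take in families of similar copies, such as U6, 7SL and snaR. The shares therefore do not count independent genes. The RNA level in these cells was not measured in the files used, and its part in these shares was not tested.

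All 22 peaks lay on the minus strand, from which both genes are transcribed, and 0 lay on the plus strand. Positions are given along the RNA, counted from 1 at the 5′ end, which is the highest coordinate of each gene. No peak was found within 1000 bp outside either gene. The neighbouring protein-coding genes begin 272 bases beyond RMRP (CCDC107) and 223 bases beyond RPPH1 (PARP2), and both had 0 peaks in the 4 lists. The annotated pseudogenes RMRPP5, RPPH1-2P and RPPH1-3P also had 0 peaks.

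**Figure D1:**
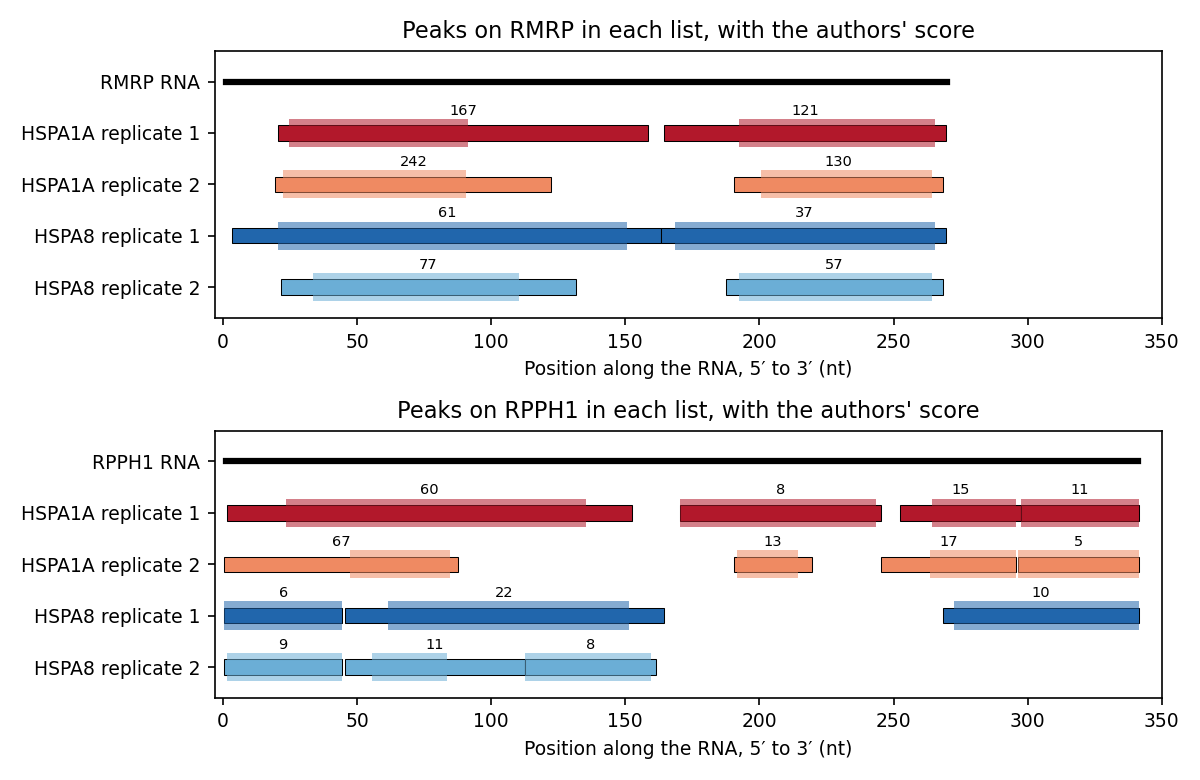
Peaks on RMRP (top) and RPPH1 (bottom) in each list, drawn along the RNA in nt from the 5′ end. Thin outlined bars are whole peaks, taller pale bars a second interval deposited with each peak, which lies inside it or equals it, and numbers the authors' score. RMRP has 2 peaks in every list, and RPPH1 has no peak beyond nt 161 in HSPA8 replicate 2.

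RMRP had the same arrangement in all lists: 1 peak over its 5′ part and 1 over its 3′ part, 2 peaks per list. The 5′ peak of HSPA1A replicate 1, at chr9:35657862-35657999, was 138 bp wide, covered nt 21 to 158 and had a score of 167. In HSPA1A replicate 2 the 5′ peak, at chr9:35657898-35658000, was 103 bp wide, covered nt 20 to 122 and had a score of 242. The 5′ edges of these peaks differed by 1 nt and their inner edges by more.

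For HSPA8 replicate 1 the 5′ peak of RMRP lay at chr9:35657857-35658016, was 160 bp wide, covered nt 4 to 163 and had a score of 61. For HSPA8 replicate 2 it lay at chr9:35657889-35657998, was 110 bp wide, covered nt 22 to 131 and had a score of 77. HSPA8 replicate 1 was thus the list whose 5′ peak began nearest the RNA's first base, while the other 3 began between nt 20 and nt 22.

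The 3′ peak of RMRP ended at nt 268 or 269 in all 4 lists, within 2 nt of the last base of the RNA. In HSPA1A replicate 1 it lay at chr9:35657751-35657855, was 105 bp wide, covered nt 165 to 269 and had a score of 121. In HSPA1A replicate 2 it lay at chr9:35657752-35657829, was 78 bp wide, covered nt 191 to 268 and had a score of 130. The outer edge was nearly the same in both, and the inner edge was not.

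In HSPA8 replicate 1 the 3′ peak of RMRP lay at chr9:35657751-35657856, was 106 bp wide, covered nt 164 to 269 and had a score of 37. In HSPA8 replicate 2 it lay at chr9:35657752-35657832, was 81 bp wide, covered nt 188 to 268 and had a score of 57. In every list the 3′ peak scored below the 5′ peak of the same list.

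The stretch between the RMRP peaks differed between lists by replicate number. In the lists numbered 1 the peaks nearly met, with a gap of 6 nt for HSPA1A and 0 nt for HSPA8. In the lists numbered 2 they were apart, by 68 nt (nt 123 to 190) for HSPA1A and 56 nt (nt 132 to 187) for HSPA8. Peaks of the lists numbered 1 were also wider in general for each bait, with median widths of 48 against 44 bp for HSPA1A and 57 against 51 bp for HSPA8, and the part of this in the gap was not tested.

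Peaks of all 4 lists covered 179 nt of RMRP (66.3% of the RNA), in a 5′ block of 101 nt from nt 22 to 122 and a 3′ block of 78 nt from nt 191 to 268. Only 4 nt were covered by 0 lists: nt 1 to 3 and nt 270. There were 0 nt covered by both lists of one bait and neither list of the other, in either direction. By contrast, 51 nt (18.9%) were covered by both lists numbered 1 and neither list numbered 2, at nt 132 to 158, nt 165 to 187 and nt 269.

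**Figure D2:**
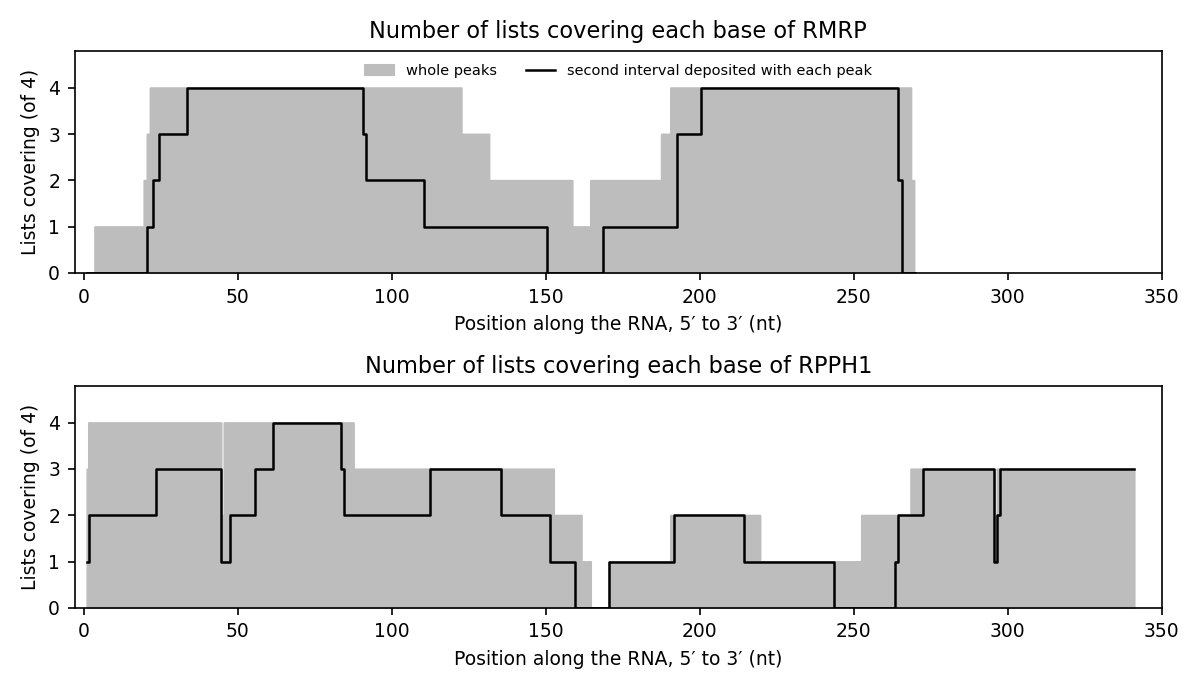
Number of the 4 lists whose peaks cover each base of RMRP (top) and RPPH1 (bottom), against position in nt from the 5′ end. Grey areas are whole peaks and black lines the second interval deposited with each peak. RMRP has common blocks at nt 22 to 122 and 191 to 268, and RPPH1 reaches 4 lists only within nt 2 to 87.

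RPPH1 was covered by more and shorter peaks, 4 per HSPA1A list and 3 per HSPA8 list, with a median width of 49.5 bp over 14 peaks against 106 bp over the 8 on RMRP. The higher number depended on how peaks were counted. With peaks within 50 bp merged, both RNAs had a mean of 1.5 peaks per list. With only peaks scoring at or above the list median, both had a mean of 2. The 5′-most RPPH1 peak of HSPA1A replicate 1, at chr14:20343260-20343410, was 151 bp wide, covered nt 2 to 152 and had a score of 60. In HSPA1A replicate 2 it lay at chr14:20343325-20343411, was 87 bp wide, covered nt 1 to 87 and had a score of 67. This was the highest-scoring peak on RPPH1 in each HSPA1A list.

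In both HSPA8 lists the same stretch was split by a gap of 1 nt at nt 45. HSPA8 replicate 1 had a peak at chr14:20343368-20343413, 46 bp wide with a score of 6, that covered nt 1 to 44 and reached 2 bp beyond the annotated 5′ end. Its next peak, at chr14:20343248-20343366, was 119 bp wide, covered nt 46 to 164 and had a score of 22. The second of these was the highest-scoring peak on RPPH1 in this list.

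HSPA8 replicate 2 had a peak at chr14:20343368-20343411, 44 bp wide with a score of 9, over nt 1 to 44. It was followed by a peak at chr14:20343300-20343366, 67 bp wide with a score of 11, over nt 46 to 112. A further peak, at chr14:20343251-20343299, was 49 bp wide, covered nt 113 to 161 and had a score of 8. These 3 peaks were all that this list held on RPPH1.

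The middle of RPPH1 was reached by peaks of their own in the HSPA1A lists. In replicate 1 this peak lay at chr14:20343167-20343241, was 75 bp wide, covered nt 171 to 245 and had a score of 8. In replicate 2 it lay at chr14:20343193-20343221, was 29 bp wide, covered nt 191 to 219 and had a score of 13. Neither HSPA8 list had a base of a peak between nt 165 and nt 268.

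The 3′ end of RPPH1 carried 2 peaks in each HSPA1A list. In replicate 1 they lay at chr14:20343115-20343159 (45 bp, nt 253 to 297, score 15) and chr14:20343071-20343114 (44 bp, nt 298 to 341, score 11). In replicate 2 they lay at chr14:20343117-20343166 (50 bp, nt 246 to 295, score 17) and chr14:20343071-20343115 (45 bp, nt 297 to 341, score 5). The boundary between the 2 peaks thus fell at nearly the same base in both lists, and the outer peak ended at the last annotated base.

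HSPA8 replicate 1 had 1 peak at this end, at chr14:20343071-20343143, 73 bp wide with a score of 10, which covered nt 269 to 341. HSPA8 replicate 2 had none there, and its last 180 nt, from nt 162 to 341, were uncovered. Over nt 171 to 341, peaks covered 164 and 124 nt in HSPA1A replicates 1 and 2 and 73 and 0 nt in HSPA8 replicates 1 and 2. Over nt 1 to 170 they covered 151 and 87 nt against 163 and 160 nt. By whole peaks the baits did not overlap in either segment, with HSPA1A covering more of the 3′ segment and HSPA8 more of the 5′ segment. How many other RNAs part by bait in this way was not counted. HSPA8 replicate 2 was also the list with the lowest share of all genes holding a peak (1.28%). With only peaks scoring at or above the list median, HSPA8 replicate 2 had 0 peaks on RPPH1, so the order in the 5′ segment did not hold. This cutoff was a score of 22 in HSPA8 replicate 2, against 10 in HSPA8 replicate 1 and 10 and 13 in HSPA1A replicates 1 and 2. The segments are described after their values were seen, with no test. An exact test of 2 against 2 lists cannot give a p below 0.33.

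All 4 lists covered 85 nt of RPPH1 (24.9%), at nt 2 to 44 and nt 46 to 87. Both HSPA1A lists and neither HSPA8 list covered 46 nt (13.5%), at nt 45, 191 to 219 and 253 to 268. The peaks over nt 191 to 219 scored 8 in HSPA1A replicate 1, below the list median of 10, and 13 in replicate 2, equal to the list median. Such shares were not counted over other RNAs. Both HSPA8 lists and neither HSPA1A list covered 9 nt (2.64%), at nt 153 to 161. The 6 nt covered by 0 lists lay at nt 165 to 170.

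**Figure D3:**
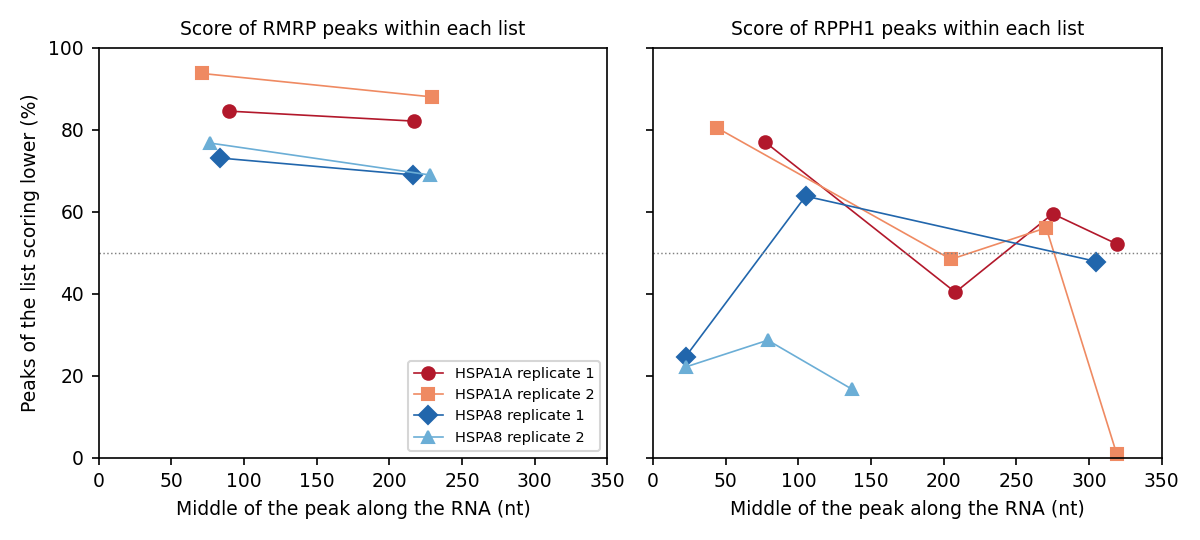
Percentage of peaks in the same list that score lower than each peak on RMRP (left) and RPPH1 (right), against the middle of the peak in nt from the 5′ end. Colours and symbols mark lists, lines join the peaks of a list and the dotted line marks the list median. All 8 RMRP peaks lie above the median of their list, against 6 of 14 RPPH1 peaks.

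Scores were then placed within their own list, scaffold peaks included. Each of the 8 RMRP peaks scored above the median of its list and was wider than the median peak. The 5′ peak of RMRP outscored 84.5% and 93.7% of peaks in HSPA1A replicates 1 and 2 and 73.1% and 76.8% in HSPA8 replicates 1 and 2. Its rank was 423 of 2744, 128 of 2059, 840 of 3131 and 467 of 2040 in these lists. The 3′ peak outscored 82.1%, 88.0%, 69.0% and 69.0%.

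RPPH1 peaks stood lower in their lists, with 6 of 14 above the list median and 8 of 14 wider than the median peak. The best RPPH1 peak outscored 77.0% and 80.5% of peaks in HSPA1A replicates 1 and 2 and 63.8% and 28.7% in HSPA8 replicates 1 and 2. The lowest was the 3′-most peak of HSPA1A replicate 2, which outscored 0.971%. In every list the best RPPH1 peak scored below both RMRP peaks. Lists differ in length and in their scaffold peaks, so these positions are not compared between baits.

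The share of each RNA under a peak does not use the score and was compared between baits. Peaks covered 90.0% and 67.0% of RMRP in HSPA1A replicates 1 and 2 and 98.5% and 70.7% in HSPA8 replicates 1 and 2. HSPA1A had a mean of 78.5% ± 16.2 (SD, n = 2), and HSPA8 one of 84.6% ± 19.6 (SD, n = 2). The difference, HSPA1A minus HSPA8, was -6.11 percentage points, less than the SD of either bait (two-sided exact permutation over 6 orders of the bait labels, p = 0.67). The smallest p this test can give is 0.33. The direction turned without HSPA1A replicate 2, to 5.37, or without HSPA8 replicate 1, to 7.78 (exact permutation test, p = 1 for each), and without HSPA1A replicate 1 or HSPA8 replicate 2 the difference was -17.6 or -20.0. With a second interval deposited with each peak in place of the whole peak, the baits did not overlap and the difference was -19.3 (exact permutation, p = 0.33).

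For RPPH1 the covered share was 92.4% and 61.9% in HSPA1A replicates 1 and 2 and 69.2% and 46.9% in HSPA8 replicates 1 and 2. The baits overlapped, since HSPA8 replicate 1 exceeded HSPA1A replicate 2. HSPA1A had a mean of 77.1% ± 21.6 (SD, n = 2), and HSPA8 one of 58.1% ± 15.8 (SD, n = 2). HSPA1A was thus 19.1 percentage points higher (two-sided exact permutation, p = 0.67). The difference moved to 3.81 without HSPA1A replicate 1, to 7.92 without HSPA8 replicate 2, to 34.3 without HSPA1A replicate 2 and to 30.2 without HSPA8 replicate 1. With equal numbers of top-scoring peaks per list the HSPA8 values were 56.3% and 46.9%, the baits no longer overlapped, and HSPA1A was 25.5 percentage points higher (exact permutation, p = 0.33). With peaks at or above the list median HSPA8 replicate 2 fell to 0% and the difference was 31.4, and with the second interval it was 11.1 (exact permutation, p = 0.67 for each).

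**Figure D4:**
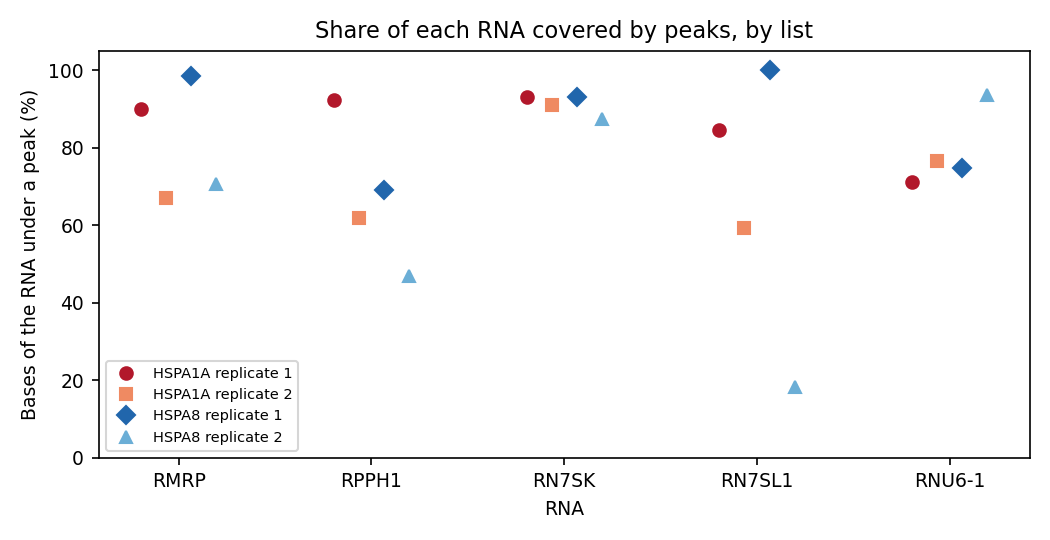
Percentage of the bases of each RNA that lie under a peak, for RMRP, RPPH1, 7SK (RN7SK), 7SL (RN7SL1) and U6 (RNU6-1), with 1 point per list. Colours and symbols mark lists. RN7SK lies between 87.3% and 93.1% in all lists, while RMRP and RPPH1 spread from 46.9% to 98.5%.

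The 2 RNAs were also set against each other within each list. RMRP minus RPPH1 was -2.38 and 5.16 percentage points in HSPA1A replicates 1 and 2 and 29.3 and 23.8 in HSPA8 replicates 1 and 2. The mean of 14.0 did not separate from 0 (exact sign-flip permutation over 4 lists, two-sided, p = 0.25, where the smallest possible is 0.12), and RMRP was the more covered RNA in 3 of 4 lists. Without HSPA8 replicate 1 the mean was 8.87 (exact sign-flip permutation, p = 0.5). With peaks at or above the list median it was 37.7, with RMRP the more covered RNA in 4 of 4 lists (exact sign-flip permutation, p = 0.12, as low as 4 lists allow). This filter removed none of the 8 RMRP peaks, so it could only raise or keep the difference and adds no support. The mean was 7.15 with both genes extended by 50 bp and 7.36 with the second interval (exact sign-flip permutation, p = 0.38 and p = 0.5). Whether the difference between RNAs itself differed between baits was not tested.

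For comparison, 7SK RNA, a polymerase III product that regulates transcription elongation, was covered over 93.1%, 91.0%, 93.1% and 87.3% of its 332 nt, the HSPA1A lists first and each pair in order of replicate number. In the same order of lists, U6 RNA of RNU6-1, a spliceosomal RNA, was covered over 71.0%, 76.6%, 74.8% and 93.5% of its 107 nt. 7SL RNA of RN7SL1, the RNA of the signal recognition particle, was covered over 84.6%, 59.2%, 100% and 18.4% of its 299 nt. RMRP, RPPH1, RN7SK and RN7SL1 each had a lower covered share in the list numbered 2 of either bait, and RNU6-1 had a higher one. RNY1 had 1 peak in each list numbered 1 and 0 in those numbered 2, and VTRNA1-1 and BCYRN1 had 0 in all 4.

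The agreement of covered bases between pairs of lists was measured by the Jaccard index, the bases covered in both lists divided by those covered in either. For RMRP it was 0.738 between the HSPA1A lists and 0.718 between the HSPA8 lists. The lists numbered 1 gave 0.914 and those numbered 2 gave 0.927, against 0.786 and 0.680 for the pairs that share neither bait nor number. Within-bait minus between-bait means differed by -0.0990 (exact permutation over 3 splits of the lists into pairs, one-sided, p = 1). On RMRP, lists of different baits with the same number were the most alike pairs by whole peaks, and both within-bait pairs lay below them. With the second interval the direction turned, to 0.0929 (exact permutation, p = 0.33), and the HSPA1A pair was the most alike, at 0.915.

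For RPPH1 the Jaccard index was 0.628 between the HSPA1A lists and 0.678 between the HSPA8 lists. The lists numbered 1 gave 0.680 and those numbered 2 gave 0.302, against 0.462 and 0.547 for the other pairs. The within-bait mean exceeded the between-bait mean by 0.156 (exact permutation over 3 splits, one-sided, p = 0.33, the smallest possible). Without HSPA8 replicate 2 the excess was 0.0152, and without the other lists in turn it was 0.107 to 0.254. With only peaks at or above the list median it was -0.00541. HSPA8 replicate 2 then had 0 peaks on RPPH1 and the other lists had fewer, 3, 3 and 2.

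**Figure D5:**
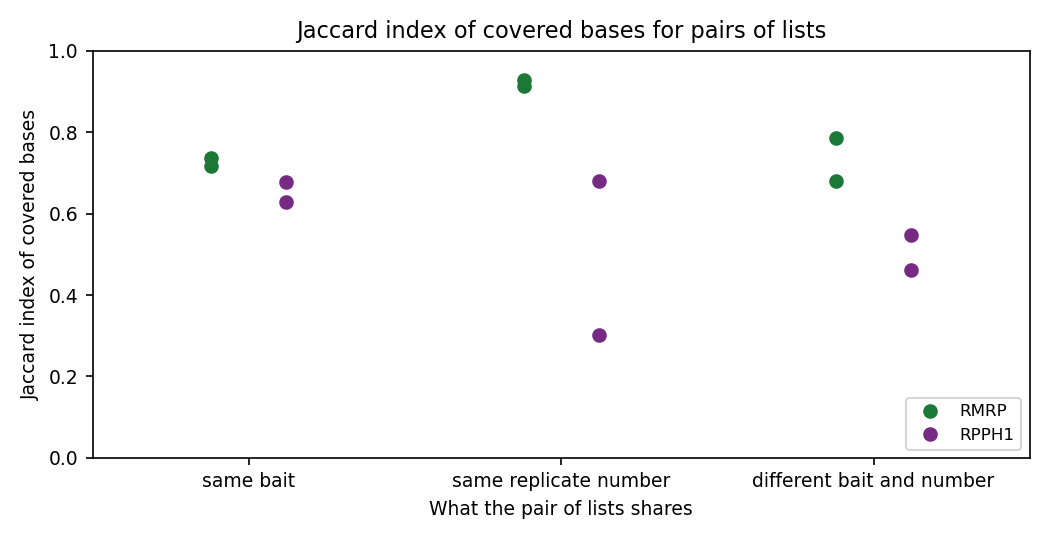
Jaccard index of covered bases for the 6 pairs of lists, grouped by what the pair shares, with RMRP in green and RPPH1 in purple and 1 point per pair. For RMRP the pairs of the same replicate number are highest, at 0.914 and 0.927, and for RPPH1 they are the highest and the lowest, at 0.680 and 0.302.

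Protein partners of the RNAs were examined through their genes, since peaks could lie on these mRNAs as well. Of the 11 genes of RNase P and RNase MRP protein subunits (POP1, POP4, POP5, POP7, RPP14, RPP21, RPP25, RPP25L, RPP30, RPP38 and RPP40), 0 had a peak in any list. Of all genes, 2927 (4.90%) had a peak in any list, so 11 genes give little room to see one.

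The polymerase III genes whose best-scoring peak stood nearest in the lists were U6 genes for both RNAs. The measure was the mean absolute difference, over the 4 lists, of the percentage of peaks scoring lower, among the 10 genes outside the tRNA and 5S rRNA families with a peak in every list. For RMRP the nearest were RNU6-1 and RNU6-2, each at 7.61 percentage points, and RNU6-9 at 7.86. For RPPH1 they were RNU6-7 at 14.0, RNU6-8 at 14.0 and RNU6-1 at 15.6, the last tied with RNU6-2 and taken by name. U6 genes made up most of the genes ranked, with places 1 to 5 of 9 for each RNA. RN7SK came next and close behind, at 9.03 for RMRP and 17.6 for RPPH1. Nearest did not mean alike in each list: in HSPA8 replicate 2 the best RNU6-7 peak outscored 62.0% of peaks, against 28.7% for RPPH1. U6 genes are near-identical copies, so their peaks are uncertain between copies and these are not independent genes.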

How the data were processed

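FLASH-seq peak lists of 4 libraries (HSPA1A and HSPA8, replicates 1 and 2) were analysed. Per the labels, random tags merged PCR duplicates, and each list belongs to 1 replicate. The submitters' processing notes name GRCh38, Trim Galore 0.4.4, FastQC, STAR 2.6.0b and deepTools. How peaks were called, at what threshold, and how multiply mapping reads were handled is not given in the sources used here. The score and the second interval of columns 7 and 8 were deposited by the authors with no unit stated. The deposited positions count from 0 at the start and were turned to 1-based positions.

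Members and lists were chosen with earlier results of these data known. Named genes were the members, their pseudogenes, neighbours within 1000 bp, 11 protein subunit genes, 6 polymerase III RNAs and, for each member, the 3 genes nearest in score position. The gene table gives no strand: both members were read on the minus strand, other genes with strand ignored. Peaks were assigned by an overlap of at least 1 bp. Exact permutation tests compared lists. For the covered share between baits, the p-values rest on the spread between 2 replicates per bait, which the series' design text calls biological. The sign-flip test of RMRP minus RPPH1 took the 4 lists of both baits alike as replicates. The Jaccard test compared the 3 splits of the lists into pairs. Alternatives were strand ignored, peaks at or above the list median score, the 2040 top-scoring peaks of each list, the gene extended by 50 bp, peaks within 50 bp merged, at least 50 percent of the peak on the gene, leaving out each replicate, and a block for the replicate number. The second interval was added after seeing the data. Sequences of the RNAs were not analysed here. Computations used Python 3.11.15, numpy 2.4.6 and matplotlib 3.10.9. The assignment was tested on simulated peaks at 200 genes, and covered bases were recovered at all 200.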

Additional observations from a re-analysis of the deposited data

How the results depend on the processing

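Of 69 values under other settings, 63 kept their direction or stayed within 1.5 times the main count, 4 reversed and 2 moved. Some of the 63 could not change. Ignoring strand, or asking for at least 50 percent of the peak on the gene, kept every peak and returned the main values. The replicate block gives the main difference by arithmetic, and the filters by score removed no RMRP peak. The 63 is therefore no measure of stability. With peaks at or above the list median, RPPH1 had a mean of 2 peaks per list in place of 3.5, the same mean as RMRP. The RPPH1 counts were 3 and 3 in HSPA1A replicates 1 and 2 and 2 and 0 in HSPA8 replicates 1 and 2. A filter by score cannot raise this number. The within-bait minus between-bait Jaccard index of RPPH1 then reversed to -0.00541 (exact permutation, p = 0.67). With peaks within 50 bp merged, RPPH1 and RMRP each had a mean of 1.5 peaks per list. With the second interval, chosen after seeing the data, the RMRP Jaccard difference reversed from -0.0990 to 0.0929 (exact permutation, p = 0.33), and the cause was not tested. With a replicate left out, the RMRP difference in covered share ranged from -20.0 to 7.78 percentage points and reversed without HSPA1A replicate 2 (5.37) and without HSPA8 replicate 1 (7.78). That of RPPH1 ranged from 3.81 to 34.3, the Jaccard differences from -0.132 to -0.0593 for RMRP and from 0.0152 to 0.254 for RPPH1, and RMRP minus RPPH1 from 8.87 to 19.4. Since no exact test between baits can give a p below 0.33, calls that did not change carry no information on stability, and read depth is unknown.

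No shared day or batch is tied to a replicate number in the labels. The deviations of lists with the same number from the mean of their bait had a correlation of 0.631 over the bases of RMRP, -0.307 over those of RPPH1 and -0.00249 over 2927 genes with a peak in any list, and bases or genes are no replicates. With the replicate block, in which lists of the same number were paired, the difference in covered share was -6.11 for RMRP and 19.1 for RPPH1 (exact sign-flip permutation, p = 0.5 for each, the smallest possible).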

Other observations

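Each deposited peak comes with a second interval, whose meaning is not stated. It lies inside the peak and equals it in 118 to 699 peaks of a list, in 0 of the 8 peaks on RMRP and in 2 of the 14 on RPPH1. On RMRP these intervals left 121 nt (44.8% of the RNA) common to all 4 lists, at nt 34 to 90 and nt 201 to 264. They covered 51.9% and 48.9% of RMRP in HSPA1A replicates 1 and 2 and 84.1% and 55.2% in HSPA8 replicates 1 and 2. In this measure both HSPA8 lists lay above both HSPA1A lists, a difference of -19.3 percentage points for HSPA1A minus HSPA8 (two-sided exact permutation, p = 0.33, the smallest possible). The Jaccard index of these intervals on RMRP was 0.915 between the HSPA1A lists, 0.656 between the HSPA8 lists, 0.617 for the pair numbered 1 and 0.756 for the pair numbered 2. The likeness of same-numbered lists seen with whole peaks was therefore not seen with these intervals.

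On RPPH1 the second intervals left 22 nt (6.45%) common to all 4 lists, at nt 62 to 83. They covered 76.2% and 40.2% of RPPH1 in HSPA1A replicates 1 and 2 and 59.5% and 34.6% in HSPA8 replicates 1 and 2. Peaks of RPPH1 that met or nearly met did so at nt 44 to 46 in both HSPA8 lists, at nt 112 to 113 in HSPA8 replicate 2 and at nt 295 to 298 in both HSPA1A lists.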
